A study of Mus musculus with 4 samples.

Results

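Oxidative stress response genes were followed in single cells sorted from mice: Hmox1, Gclm, Gclc, Txnrd1, Srxn1, Prdx1, Sqstm1, Fth1 and Ftl1. They were taken by symbol, and 9 of 9 were present among the 27998 genes of every deposited library. The genes and the cell classes in which they are compared were chosen by their measured levels and ratios in these libraries, so the levels and ratios below are descriptions and none of them is a test.

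Cells that meet reactive oxygen species, electrophiles or free haem switch on a shared set of protective genes. The main switch is NRF2, the product of Nfe2l2, which is held low by KEAP1 and, once released, pairs with small MAF proteins at antioxidant response elements, where BACH1 acts as a repressor that haem removes. In bone marrow, macrophages and monocytes handle large amounts of haem and iron, plasma cells carry the oxidative load of antibody folding, and primitive progenitors are known for a low oxidative state. The 9 genes cover glutathione synthesis (Gclc, Gclm), the thioredoxin and peroxiredoxin systems (Txnrd1, Srxn1, Prdx1), haem breakdown (Hmox1), iron storage (Fth1, Ftl1) and the delivery of cargo to autophagy (Sqstm1).

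The libraries labelled knockout came from CDH5-CreER mice given as ID1-/- ID3-/-, and the control libraries from CDH5-CreER mice given as ID1+/+ ID3+/-, which the titles call WT. All groups received tamoxifen intraperitoneally on 5 consecutive days, so Cre activity, tamoxifen and at least 1 missing Id3 allele are shared by all groups. By the labels tamoxifen deletes the ID1 locus, although the controls are given as ID1+/+. The recombinase is driven by a promoter of endothelial cells. Lineage-negative cells positive for CD31, VE-cadherin and endomucin were sorted into a Sca-1-positive gate, labelled H vessel, and a Sca-1-negative gate, labelled sinusoidal, with 1 library per genotype and gate. The sources used here do not give the number or age of the mice. With 1 library per group no difference has a replicate check.

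In the sorted cells Cdh5 was rare, and the endothelial genes checked (Cdh5, Kdr, Stab2, Flt4, Plvap and Ptprb) were rarely found together. Cdh5, which encodes VE-cadherin, had 45 UMIs (unique molecular identifiers, each a captured transcript) in 28 cells, and 1 cell held UMIs of at least 2 of 6 endothelial genes. Id3, expected to be absent from the knockout, had 84.9 and 84.8 CPM (UMIs of a gene scaled to a fixed total, as counts per 1000000) in the type H and sinusoidal libraries labelled knockout, against 33.0 and 54.7 CPM in the type H and sinusoidal controls, so the level of Id3 goes against the labels and "labelled knockout" is used throughout. Id1, the locus that tamoxifen deletes by the labels, had 26.3 CPM labelled knockout and 26.1 CPM control in the sinusoidal gate. In the type H gate it had 2.99 CPM labelled knockout and 4.08 CPM control. The assay reads transcript ends, and a deleted allele that still makes a transcript could give such tags, so whether the labels hold was not tested. The libraries held 5703108 to 11065352 UMIs in the type H gate and 3234772 to 8338220 UMIs in the sinusoidal gate, and 3567 of 3641 barcodes were kept. Clusters were named from marker genes, and each name ends in "-like". The type H gate was mostly progenitor-like cells (1462 labelled knockout, 595 control) with plasma cell-like cells (167 and 109), and the sinusoidal gate was mostly granulocyte precursor-like cells (254 and 91) and monocyte-like cells (219 and 174). Over the pairs of libraries, 4 barcode strings were shared.

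The promoters of 4 of the genes are shown because they hold the core of the antioxidant response element, the sequence through which NRF2 acts on such genes. The window runs from 250 bases before to 50 bases after each gene's start in RefSeq on GRCm38.p6, and the core searched was TGACNNNGC on both strands. RefSeq windows were matched for 7 of the 9 genes, 10 windows in all because Txnrd1 has several starts and Fth1 more than 1. Hmox1 and Gclc had no entry. Capitals mark the match, which in all 4 windows lies on the strand opposite to the one printed.
Gclm chr3:122245307-122245606, plus strand: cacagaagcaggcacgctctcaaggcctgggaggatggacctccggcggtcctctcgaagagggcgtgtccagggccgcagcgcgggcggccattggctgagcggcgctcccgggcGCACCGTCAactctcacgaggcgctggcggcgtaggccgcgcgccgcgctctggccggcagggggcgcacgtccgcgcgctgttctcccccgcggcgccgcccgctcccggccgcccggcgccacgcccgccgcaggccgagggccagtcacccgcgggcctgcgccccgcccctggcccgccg
Txnrd1 chr10:82858956-82859255, plus strand: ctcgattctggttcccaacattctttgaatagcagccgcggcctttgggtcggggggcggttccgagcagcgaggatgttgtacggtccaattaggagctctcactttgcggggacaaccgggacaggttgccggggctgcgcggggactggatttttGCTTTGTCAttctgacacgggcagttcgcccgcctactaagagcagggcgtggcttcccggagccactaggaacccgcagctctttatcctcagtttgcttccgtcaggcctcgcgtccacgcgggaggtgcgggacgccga
Srxn1 chr2:152105274-152105573, plus strand: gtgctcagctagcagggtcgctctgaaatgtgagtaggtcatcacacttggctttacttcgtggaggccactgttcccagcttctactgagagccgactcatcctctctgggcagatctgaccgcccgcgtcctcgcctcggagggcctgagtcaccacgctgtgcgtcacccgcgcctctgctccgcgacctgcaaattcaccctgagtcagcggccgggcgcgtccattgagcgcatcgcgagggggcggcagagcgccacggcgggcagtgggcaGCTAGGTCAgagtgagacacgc
Prdx1 chr4:116685349-116685648, plus strand: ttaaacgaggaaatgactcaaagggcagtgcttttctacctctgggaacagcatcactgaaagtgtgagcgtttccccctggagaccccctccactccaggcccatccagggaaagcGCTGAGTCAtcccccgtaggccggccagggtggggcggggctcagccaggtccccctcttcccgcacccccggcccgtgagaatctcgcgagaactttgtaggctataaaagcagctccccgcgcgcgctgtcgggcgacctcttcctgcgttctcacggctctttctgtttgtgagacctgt
The match starts at position -134 relative to the start of Gclm, -92 for Txnrd1, +29 for Srxn1 and -133 for Prdx1. Of all 32851 windows of this length, 12.4% hold the core, against 4 of the 10 windows of these genes. The related AP-1 type site TGANTCA, present in 7.81% of windows, was found in the windows of Srxn1, at -102 and -45, and Prdx1, at -237 and -131, where the second match overlaps the antioxidant response core. The windows of Sqstm1, Fth1 and Ftl1 held no match, which says only that these letters are not within them.

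On GRCm38 the 9 genes lie on 9 chromosomes, so no pair of them neighbours another. Each level below is the sum of UMIs over the cells of a class in a library, in CPM, with an exact 95% Poisson interval that covers counting error only. Levels are given for the 13 combinations of class and library with at least 20 cells. They compare a gene between cells and not genes with each other.

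Gclc (chr9:77754535-77794485, plus strand) and Gclm (chr3:122245557-122270732, plus strand) encode the catalytic and the modifier subunit of glutamate-cysteine ligase, the rate-limiting enzyme of glutathione synthesis. Among named classes Gclm was highest in progenitor-like cells, at 145 CPM (137 to 154) in the library labelled knockout and 170.4 CPM (158 to 184) in the control. Granulocyte precursor-like cells followed with 111 and 102 CPM, labelled knockout first. Below these lay monocyte-like cells at 71.1 and 28.0 CPM and plasma cell-like cells at 42.9 and 56.2 CPM. The progenitor and granulocyte precursor intervals did not overlap, whereas neighbours further down the order did. Gclm overlaps the gene model Gm17494 on the other strand and Gm6061 on its own, and the use of strand in counting is not stated. Gclc was sparse everywhere, between 6.95 CPM in T and NK cell-like cells and 34.9 CPM in basophil and mast cell-like cells. In the 4 main classes it spanned 8.75 to 19.4 CPM, and no neighbours in its order differed beyond their intervals.

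Txnrd1 (chr10:82833951-82897712, plus strand) encodes the cytosolic thioredoxin reductase, which keeps thioredoxin reduced. It was highest in progenitor-like cells, at 68.4 CPM (62.8 to 74.5) labelled knockout and 82.4 CPM (73.6 to 91.9) control, and lay between 23.3 and 39.4 CPM in the other 3 main classes. Srxn1 (chr2:152105516-152111376, plus strand) encodes sulfiredoxin, which repairs over-oxidised peroxiredoxins. It was the member most concentrated in a single class. Progenitor-like cells held 36.7 CPM (32.6 to 41.2) labelled knockout and 31.7 CPM (26.3 to 37.8) control, and no other named class with at least 20 cells in a library exceeded 8.71 CPM. The share of cells with an Srxn1 UMI after thinning each cell to 2000 UMIs was 6.69% and 5.96% in progenitor-like cells, against 0% in monocyte-like cells of both libraries and at most 1.57% in granulocyte precursor-like cells. Prdx1 (chr4:116685544-116700822, plus strand) encodes a peroxiredoxin that removes hydrogen peroxide. It ran the other way, with 982 and 921 CPM in monocyte-like cells, against 330.1 and 384 CPM in progenitor-like cells, and 441 and 558 CPM in plasma cell-like cells.

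Hmox1 (chr8:75093621-75100589, plus strand) encodes heme oxygenase 1, which opens the haem ring and frees its iron. Its UMIs lay mostly in plasma cell-like and monocyte-like cells. Plasma cell-like cells held 25.6 CPM (17.7 to 35.8) labelled knockout and 109 CPM (87.1 to 134) control, and monocyte-like cells 54.7 CPM (46.8 to 63.6) and 78.3 CPM (62.2 to 97.4). Granulocyte precursor-like and progenitor-like cells held at most 6.13 CPM. None of the 97 B lymphoid-, T and NK cell- and plasmacytoid dendritic cell-like cells of the type H library labelled knockout had an Hmox1 UMI, which by the limit of 3 counts of the total allows a share of up to 3.09%, and 1 of the 45 such cells of the control did.

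Fth1 (chr19:9980598-9985098, plus strand) and Ftl1 (chr7:45457944-45459884, minus strand) encode the heavy and the light chain of ferritin, the shell that stores iron. Fth1 was highest in plasmacytoid dendritic cell-like cells, at 8218 CPM in 25 cells labelled knockout and 7680.4 CPM in 25 control cells. Erythroid marker genes summed to 58.7 CPM in these cells labelled knockout and 49090.0 CPM in the control, and their part in the level of Fth1 was not tested. Fth1 lay between 960 and 2516 CPM in the 4 main classes. Ftl1 had a different order, with plasma cell-like cells at 7201 and 8372 CPM and monocyte-like cells at 4872 and 7354 CPM above the 3051 to 3319 CPM of progenitor-like and granulocyte precursor-like cells. Both ferritin genes have 2 named pseudogenes in the GENCODE annotation and none in the deposited gene table, so reads could be shared with copies that are not counted and their levels are uncertain. Ftl1 also overlaps Gm10252 on the other strand.

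Sqstm1 (chr11:50199366-50210827, minus strand) encodes p62, an autophagy receptor that also binds KEAP1. It was highest in plasma cell-like cells, at 190.4 CPM (168 to 215) labelled knockout and 176 CPM (148 to 208) control, and lowest in granulocyte precursor-like cells, at 23.0 and 20.4 CPM. Between these, B lymphoid-like cells of the type H library labelled knockout held 145 CPM, with an interval that overlapped that of the control plasma cell-like cells. Progenitor-like cells held 69.1 and 66.7 CPM. Sqstm1 overlaps Mrnip on the opposite strand, and Txnrd1 overlaps Eid3 on its own strand.

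**Figure D1:**
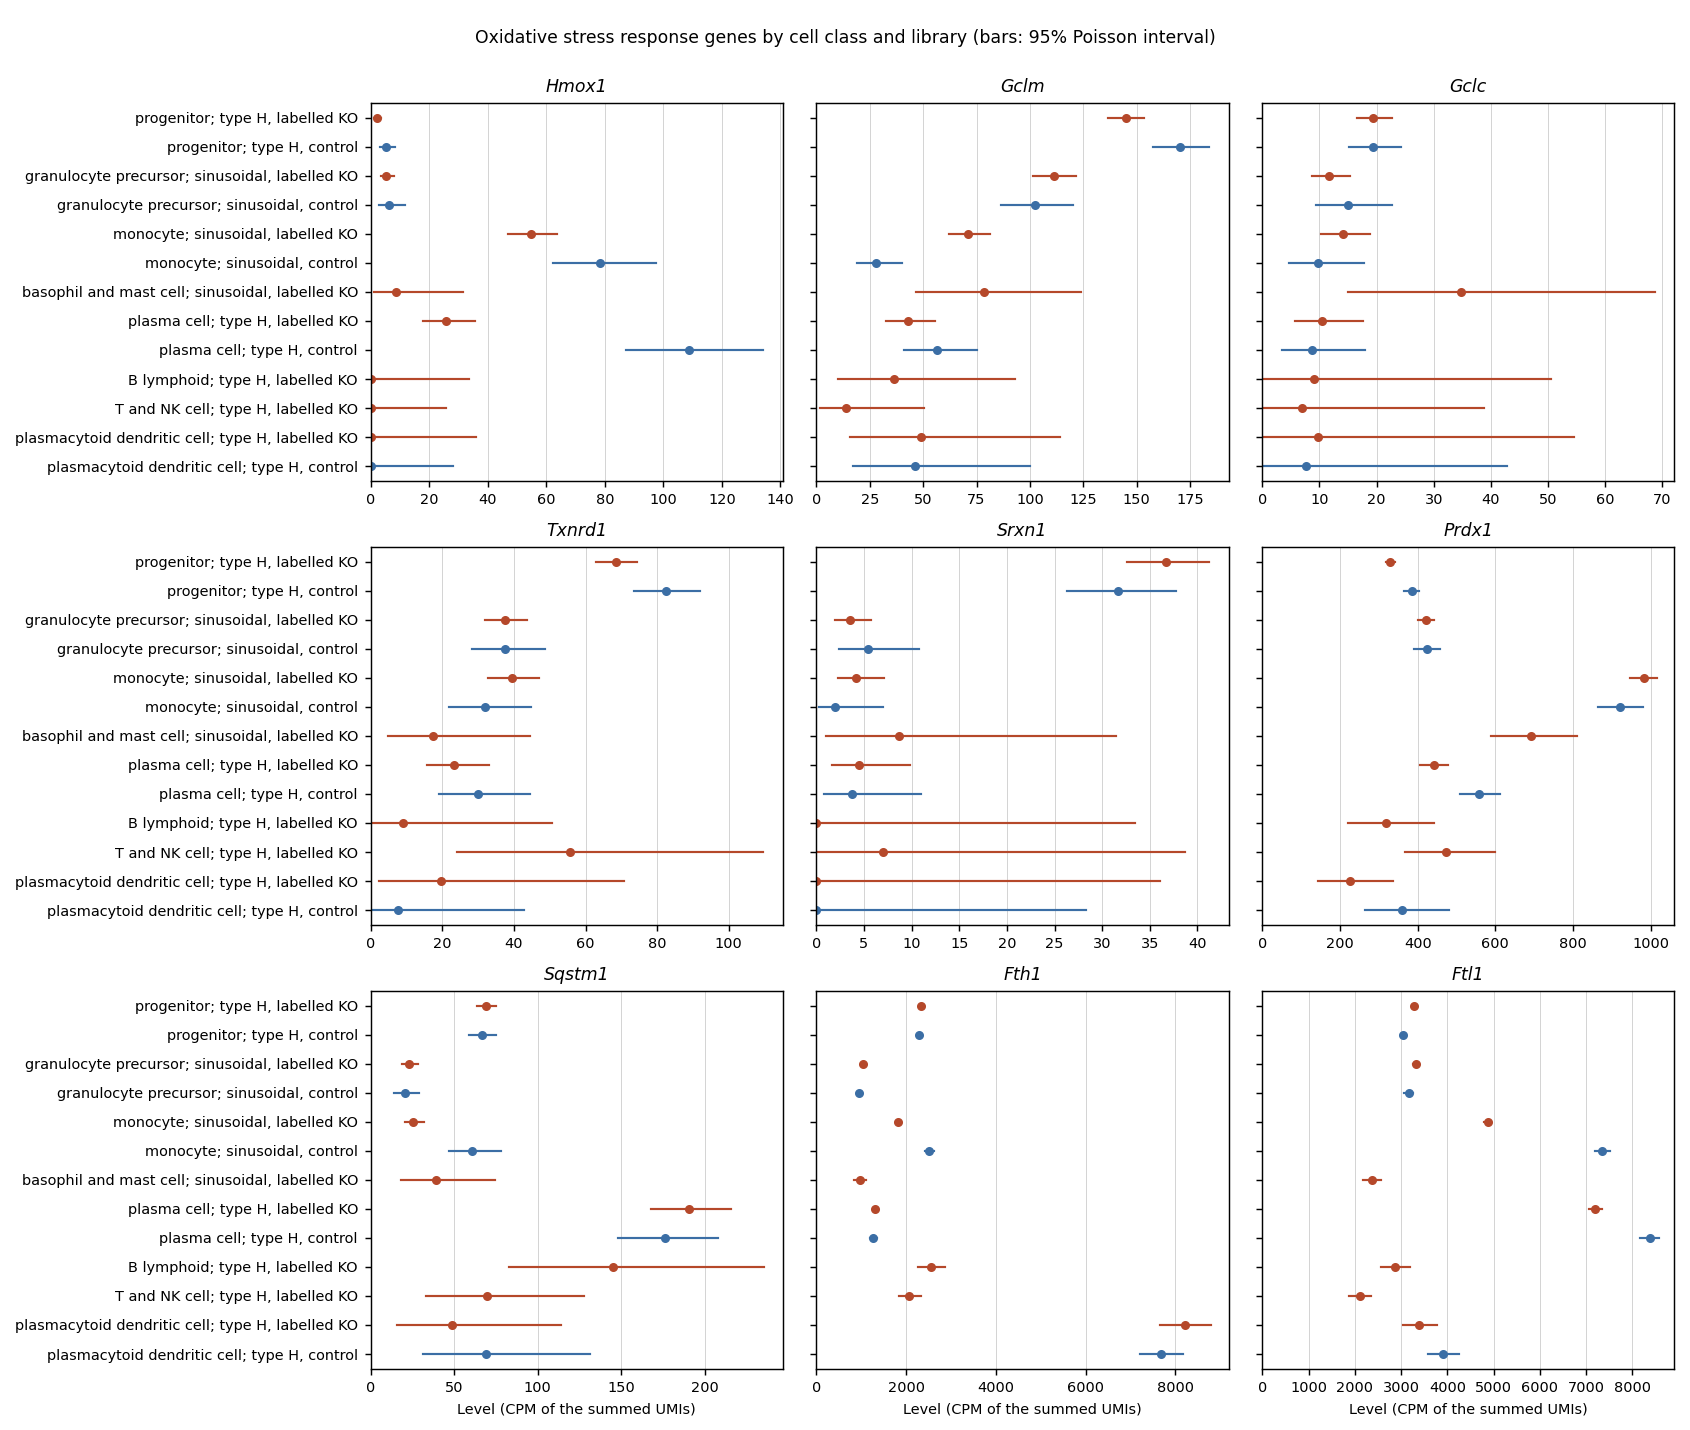
Level of each gene in CPM (x axis, linear, from 0) by cell class and library (y axis), red for libraries labelled knockout and blue for controls; points are summed UMIs scaled to CPM and bars are exact 95% Poisson intervals. Srxn1 is highest in progenitor-like cells at 36.7 and 31.7 CPM. Sqstm1 is highest in plasma cell-like cells at 190.4 and 176 CPM, with B lymphoid-like cells labelled knockout next at 145 CPM. Fth1 stands apart in plasmacytoid dendritic cell-like cells at 8218 and 7680.4 CPM.

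The genes did not share a common pattern across cell types. Over the 13 sums, the 36 pairs of members had Pearson correlations of log2(CPM + 10) from -0.47 to 0.84, with a median of -0.06, and 15 of them were positive. The points share libraries and differ in depth, so these values are descriptions. The closest pairs were Hmox1 with Ftl1 at 0.84, Txnrd1 with Srxn1 at 0.78 and Hmox1 with Prdx1 at 0.75. Both glutamate-cysteine ligase subunits had a correlation of 0.66. The ferritin chains were not each other's closest gene. Among 5939 genes, the nearest to Srxn1 were Ptrf (0.96), Csgalnact1 (0.95) and Tmem246 (0.94), the nearest to Gclm were Uqcc3 (0.96), Gmpr and Kctd1, and those near to Fth1 included Bmyc (0.97) and Itpr1. Ly6i was nearest to both Hmox1 (0.86) and Ftl1 (0.88). The nearest gene was Pafah2 for Gclc (0.93), Acat2 for Txnrd1 (0.90), Ccl6 for Prdx1 (0.86) and Kmt2e for Sqstm1 (0.94).

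Within a gate, the library labelled knockout was then set against the control of the same class, as the ratio of CPM with an exact 95% interval that covers counting error only. A gene entered a count when it had at least 20 UMIs over both libraries, and was counted higher or lower when the ratio reached 1.5-fold.

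In monocyte-like cells of the sinusoidal gate, Gclm was the member counted higher in the library labelled knockout, and Sqstm1 and Ftl1 were counted lower. Gclm was 71.1 CPM labelled knockout, against 28.0 CPM in the control, a ratio of 2.53 (1.72 to 3.87) from 222 and 29 UMIs. Sqstm1 was 25.6 CPM labelled knockout, against 60.9 CPM in the control, a ratio of 0.420 (0.298 to 0.594). Ftl1 was 4872 CPM labelled knockout, against 7354 CPM in the control, a ratio of 0.663 (0.645 to 0.681). Fth1 lay lower by less than 1.5-fold, at 1816 and 2516 CPM (0.722), and so did Hmox1, at 54.7 and 78.3 CPM (0.699). Prdx1 was close in both, at 982 and 921 CPM (1.07), and the intervals of Gclc (1.46, 0.722 to 3.25) and Txnrd1 (1.23, 0.834 to 1.87) included 1. Srxn1 had 13 and 2 UMIs and was too sparse to count. Of 8 measured members 1 was higher and 2 were lower, where 24.3% of all 8719 measured genes were higher and 22.5% lower. Differences of this size were common in this class.

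The monocyte-like class was made of different clusters in the libraries. A cluster led by F13a1 held 160 cells labelled knockout and 19 control cells. Another, led by Fn1, Lyz2 and Ms4a4c, held 54 and 114. A cluster led by Ear2, Fcgr4 and Gngt2, with Hmox1 among its leading genes, held 5 and 41. Its Hmox1 UMIs in this gate were 102 in the 5 cells labelled knockout and 9 in the 41 control cells. Those control cells were at 86.2 CPM of Hmox1, beside 99.4 CPM in the control cells of the Fn1-led cluster. The F13a1-led cells carried much less of the monocyte list (12254 CPM labelled knockout, 24549.8 CPM control) than the Fn1-led cells (62053 and 58251 CPM), and more of the granulocyte precursor list (12616 and 6127 CPM, against 982 and 1145 CPM). Macrophage markers summed to 46.4 CPM labelled knockout and 132 CPM control over the class, and erythroid markers to 188 and 884 CPM, and their part in the levels was not tested. Median depth in the class was 15183 UMIs per cell labelled knockout and 5428.5 in the control. Within the Fn1-led cluster Ftl1 was 8246 CPM labelled knockout and 7972 CPM control (ratio 1.03, 0.987 to 1.08), Sqstm1 61.6 and 53.4 CPM (1.15, 0.633 to 2.05) and Hmox1 86.2 and 99.4 CPM (0.868, 0.537 to 1.37). Within the F13a1-led cluster Ftl1 was 4257 CPM labelled knockout and 4587 CPM control (0.928, 0.874 to 0.986), and Sqstm1 19.0 and 35.3 CPM (0.540, 0.264 to 1.25). Within neither cluster did Ftl1 reach 1.5-fold. Gclm lay above the control within both clusters, at 46.2 and 22.2 CPM in the Fn1-led one (2.08, 0.946 to 4.56, from 15 UMIs each) and 66.8 and 47.0 CPM in the F13a1-led one (1.42, 0.795 to 2.80), with intervals that include 1. Txnrd1 lay on opposite sides, at 37.7 and 66.6 CPM in the F13a1-led cluster (0.567, 0.338 to 1.01) and 33.9 and 17.8 CPM in the Fn1-led one (1.90, 0.761 to 4.71). In counts, 0 of 8 measured members were higher and 2 lower in the F13a1-led cluster, where 19.4% of all genes were higher and 19.5% lower. In the Fn1-led cluster 2 of 7 were higher and 0 lower, where 8.65% of genes were higher and 14.1% lower. In the Ear2-led cluster, with its 5 cells labelled knockout, 6 of 6 were higher, where 18.3% of genes were higher and 31.7% lower. That count rests on a pair of the 5 cells, which held all 102 Hmox1 UMIs and all 21 Gclm UMIs of the cluster's cells labelled knockout. With the other 3 cells alone, 0 of 4 measured members were higher and 1 was lower (Prdx1, 1 UMI labelled knockout and 83 control), where 20.3% of genes were higher and 33.8% lower, and Ftl1 was 11071 CPM labelled knockout and 10126 CPM control (1.09, 0.874 to 1.35).

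**Figure D2:**
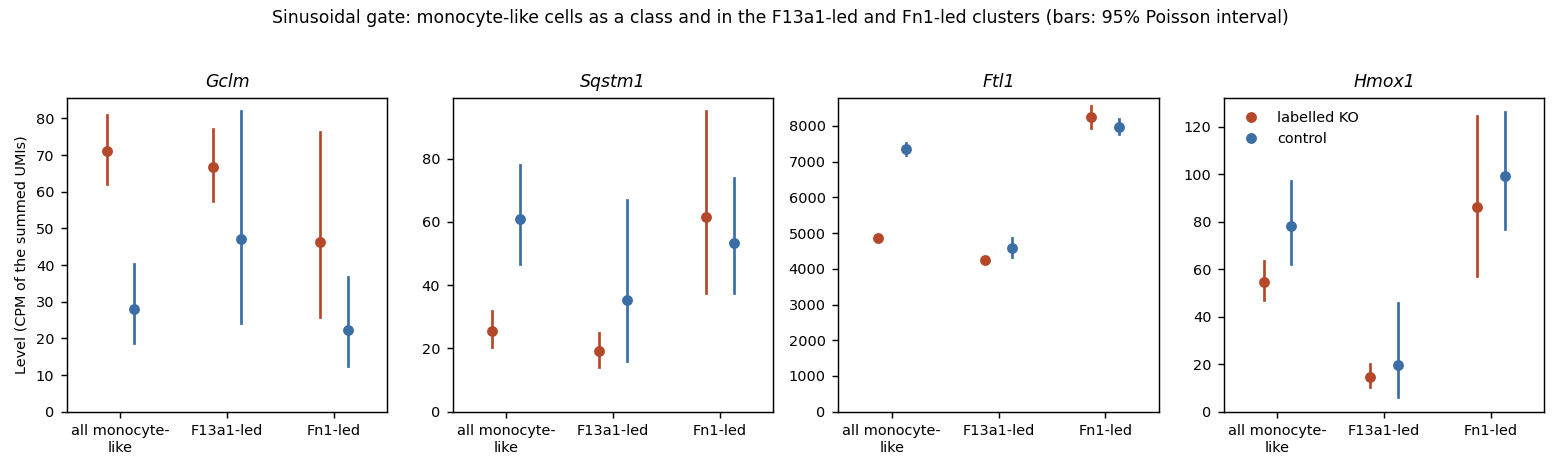
Level in CPM (y axis, linear, from 0) of 4 genes in all monocyte-like cells of the sinusoidal gate and in their F13a1-led and Fn1-led clusters, red for the library labelled knockout and blue for the control, with exact 95% Poisson intervals. Ftl1 differs over the class (4872 and 7354 CPM) but is close within the Fn1-led cluster (8246 and 7972 CPM).

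This pair of single cells held most of the Hmox1 of the monocyte-like cells labelled knockout. Of the class's 171 Hmox1 UMIs, 74 and 28 came from these cells, 59.6% in all, whereas the highest cell of the control held 6 of 81. Both were assigned to the Ear2-led cluster but lacked its leading genes, with Ear2 at 0 UMIs in both and Fcgr4 at 0 and 1. In them Hmox1 made up 1.76% and 0.803% of 4208 and 3485 UMIs, Fth1 8.25% and 7.03%, and Ftl1 7.13% and 8.69%. Prdx1 had 84 and 153 UMIs and Gclm 15 and 6. Spic, a transcription factor of iron-recycling macrophages, had 11 and 3 UMIs. Other macrophage genes were nearly absent, since 1 and 0 of 10 macrophage markers had a UMI (Adgre1, 3 UMIs), and Slc40a1, the iron exporter ferroportin, was at 0 in both, whereas 6 and 8 of 15 monocyte markers had one. Plasma cell markers had 0 and 1 UMI and erythroid markers 2 and 6. Neither cell was marked as a doublet, and mitochondrial UMIs were 0.665% and 1.46%. Without the pair, a setting chosen after they had been seen, Hmox1 was 22.1 CPM labelled knockout and 78.3 CPM in the control. The ratio was 0.283 (0.202 to 0.395). The pair was left out by its Hmox1 UMIs and no control cell was, so a lower ratio was fixed in advance. Within the F13a1-led and Fn1-led clusters, which did not hold the pair, Hmox1 had ratios of 0.752 (0.297 to 2.44) and 0.868 (0.537 to 1.37). Over the class without the pair Fth1 reached 0.648 (0.618 to 0.680). There 1 of 8 members was higher and 4 were lower, where 24.4% of genes were higher and 22.6% lower. Among the lower were Hmox1 and Fth1, which lay under 1.5-fold with the pair kept. The pair was rich in both genes, so their place in this count follows from leaving it out.

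**Figure D3:**
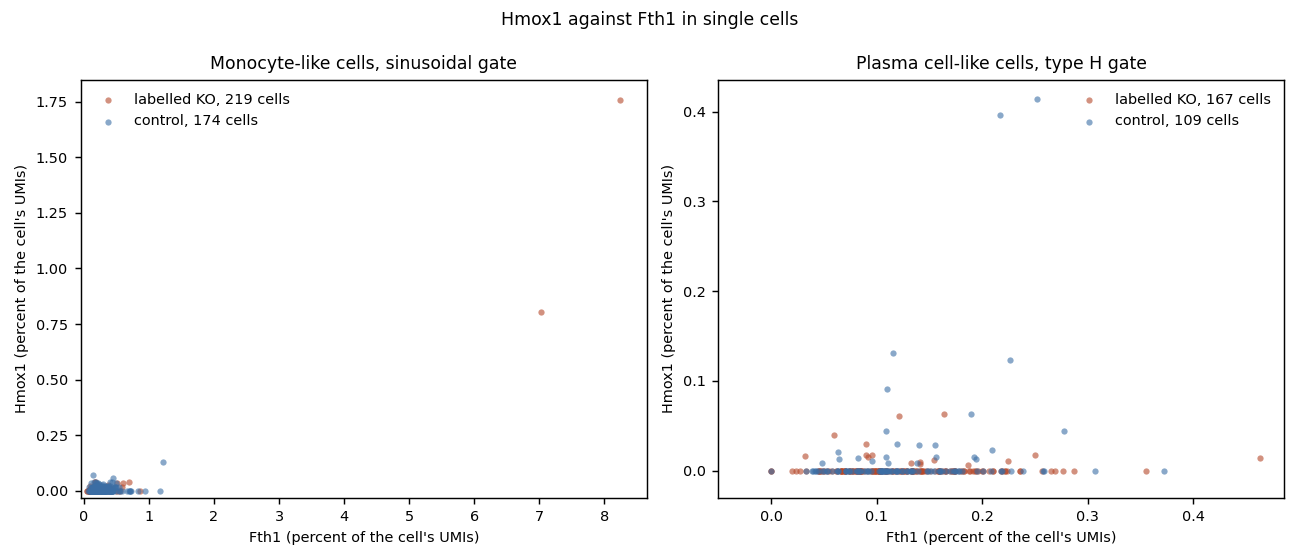
Hmox1 against Fth1, each as a percent of a cell's UMIs (linear axes, different scales in the panels), in monocyte-like cells of the sinusoidal gate and plasma cell-like cells of the type H gate, 1 point per cell, red for the library labelled knockout and blue for the control. In the monocyte panel 2 cells labelled knockout stand alone at 8.25% and 7.03% Fth1, and in the plasma cell panel the highest Hmox1 cell is a control cell at 0.415%.

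In the sinusoidal gate's granulocyte precursor-like cells the members were close in both libraries. Gclm was 111 CPM labelled knockout and 102 CPM control (1.09, 0.902 to 1.31), Prdx1 421 and 423 CPM (0.995), Txnrd1 37.5 and 37.5 CPM, and Sqstm1 23.0 and 20.4 CPM (1.13). Fth1 was 1045 and 960 CPM (1.09, 1.03 to 1.16) and Ftl1 3319 and 3164 CPM (1.05, 1.01 to 1.08). Srxn1 alone was counted lower, at 3.49 and 5.45 CPM from 15 and 8 UMIs, with a ratio of 0.641 whose interval (0.255 to 1.74) includes 1. That is 0 of 9 higher and 1 of 9 lower, where 9.06% of 8930 genes were higher and 8.97% lower. A cluster led by Mpo and Elane held 202 and 65 of these cells and another led by Ngp and Camp 52 and 26, so the make-up differed less than in monocyte-like cells. In the Ngp-led cluster Ftl1 was 3387 CPM labelled knockout and 2503 CPM control (1.35, 1.25 to 1.47). In the Mpo-led cluster Hmox1 was above the control, at 5.35 and 2.55 CPM from 19 and 3 UMIs (2.10, 0.618 to 11.1). The Mpo-led cluster had 1 of 9 members higher and 1 lower, where 8.45% of genes were higher and 9.64% lower, and the Ngp-led cluster 1 of 6 higher and 0 lower, where 31.9% of genes were higher and 10.1% lower.

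In the type H gate's progenitor-like cells, 3 enzymes of the thiol system were slightly lower in the library labelled knockout. Gclm was 145 CPM labelled knockout and 170.4 CPM control (0.851, 0.772 to 0.938), Txnrd1 68.4 and 82.4 CPM (0.831, 0.722 to 0.957), and Prdx1 330.1 and 384 CPM (0.859, 0.806 to 0.916). The other thiol genes did not share this: Srxn1 was 36.7 and 31.7 CPM (1.16, 0.937 to 1.44) and Gclc 19.4 and 19.3 CPM (1.01, 0.760 to 1.35). Fth1 was 2342 and 2290.0 CPM (1.02), Ftl1 3274 and 3051 CPM (1.07) and Sqstm1 69.1 and 66.7 CPM (1.04). Prdx1 lay below the control in all 6 progenitor-like clusters, with ratios of 0.813 to 0.991 and intervals that include 1 in 4 of them. Gclm and Txnrd1 lay below it in 5 of the 6. In the remaining cluster, led by Cldn5, Gclm was 147 CPM labelled knockout and 101 CPM control (1.45, 1.03 to 2.08). Sqstm1 went both ways between clusters, at 85.9 CPM labelled knockout and 54.4 CPM control in the Cldn5-led one (1.58, 0.996 to 2.61) and 37.0 and 68.6 CPM in one led by Cd34 and Sox4 (0.539, 0.339 to 0.849). Hmox1 was the only member past 1.5-fold, at 2.15 and 5.41 CPM (0.397, 0.197 to 0.790). It rests on 17 and 21 UMIs, in 1.03% and 3.36% of cells, at median depths of 5395.5 and 6312 UMIs. In the B lymphoid-, T and NK cell- and plasmacytoid dendritic cell-like cells of the same libraries the shares were 0% (0 of 97 cells) and 2.22% (0.0562% to 11.8%), at 3082 and 3861 UMIs, so Hmox1 in progenitor-like cells is not set apart from background. Of 9 measured members 0 were higher and 1 was lower, where 5.77% of 11446 genes were higher and 2.9% lower. In the most numerous progenitor-like cluster, of 423 cells labelled knockout and 64 control cells, 1 of 8 was higher (Gclc, 22.8 and 6.13 CPM from 35 and 2 UMIs), where 14.9% of genes were higher and 11.6% lower.

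In plasma cell-like cells of the type H gate Hmox1 was again lower, at 25.6 CPM labelled knockout, against 109 CPM in the control, a ratio of 0.235 (0.153 to 0.354). In the library labelled knockout 34 UMIs lay in 16 of 167 cells (9.58%), and in the control 87 UMIs lay in 23 of 109 cells (21.1%). The highest control cell held 28 UMIs, 32.2% of the control's, and without it the control was at 74.3 CPM and the ratio 0.344 (0.219 to 0.534). Prdx1 was 441 and 558 CPM (0.790, 0.697 to 0.895) and Ftl1 7201 and 8372 CPM (0.860, 0.834 to 0.888). Sqstm1 was 190.4 and 176 CPM (1.08, 0.876 to 1.34), Fth1 1313 and 1272 CPM (1.03, 0.955 to 1.12) and Gclm 42.9 and 56.2 CPM (0.763, 0.507 to 1.15). Of 8 measured members 0 were higher and 1 was lower, where 19.1% of 6803 genes were higher and 5.45% lower. Jchain, the joining chain of secreted antibodies, was 123088 CPM labelled knockout and 191759 CPM in the control. Its part in the other levels of this class was not tested. The make-up of the class also differed between the libraries. At a finer clustering, Leiden resolution 2, a cluster led by Jchain and Mzb1 held 67 cells labelled knockout and 85 control cells. Another, led by Chst1 and Txndc5, held 100 and 24. The part of this make-up in the ratios was not tested.

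**Figure D4:**
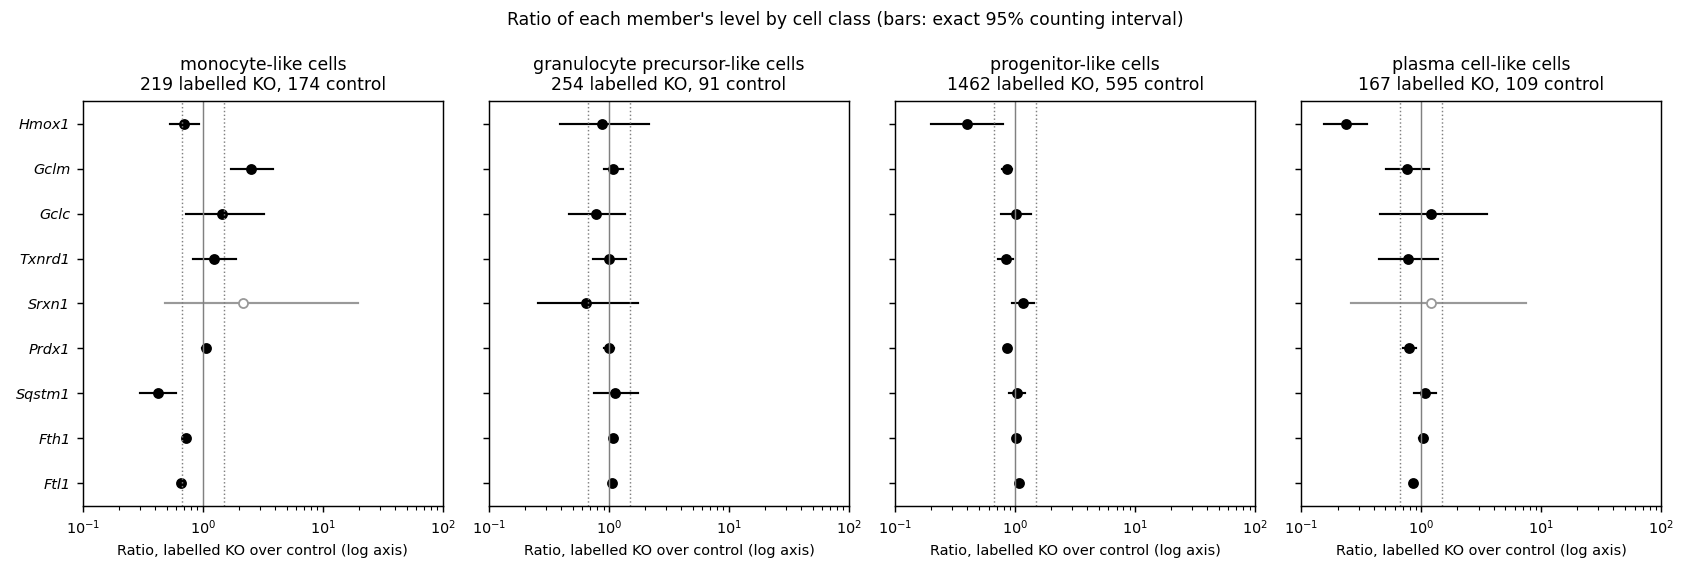
Ratio of the level in the library labelled knockout over that in the control (x axis, log scale) for each gene (y axis) in the 4 main cell classes, with exact 95% counting intervals; the solid line marks equal levels, dotted lines 1.5-fold, and open points genes under 20 UMIs. Points past a dotted line with an interval that excludes 1 are Gclm, Sqstm1 and Ftl1 in monocyte-like cells and Hmox1 in progenitor-like and plasma cell-like cells.

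Hmox1 was the 1 member below the control in all 4 classes, at 0.699, 0.873, 0.397 and 0.235 in monocyte-like, granulocyte precursor-like, progenitor-like and plasma cell-like cells, but in granulocyte precursor-like cells the interval (0.389 to 2.14) included 1 and the Mpo-led cluster lay on the other side, and in progenitor-like cells Hmox1 is not set apart from background. In monocyte-like cells this direction turned, to 1.82 when the CPM of single cells was averaged and to 2.26 after thinning. In these settings every cell counts alike. Both keep the pair of Hmox1-rich cells labelled knockout, in which Hmox1 made up 1.76% and 0.803% of the UMIs. The part of that pair in the turn was not tested. Over the measured members the median log2 ratio was -0.19 in monocyte-like, -0.01 in granulocyte precursor-like, 0.01 in progenitor-like and -0.28 in plasma cell-like cells, beside 0.02, 0.02, -0.04 and 0.14 over all measured genes. In plasma cell-like cells the median ratio over all measured genes, with no UMIs added, was 1.11, and divided by it the ratio of Ftl1 was 0.773.

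The counts of further gene lists stand beside the shares of all measured genes past 1.5-fold, which were 24.3% higher and 22.5% lower in monocyte-like cells, 9.06% and 8.97% in granulocyte precursor-like cells, 5.77% and 2.9% in progenitor-like cells, and 19.1% and 5.45% in plasma cell-like cells. Within the F13a1-led cluster these shares were 19.4% and 19.5%, and within the Fn1-led cluster 8.65% and 14.1%. Values of single list genes in monocyte-like cells, here and below, are over the whole class. Its clusters differed between the libraries, and the part of this make-up in those values was not tested. Of 10 genes that control the pathway, 1 of 8 measured was higher and 3 lower in monocyte-like cells (1 and 1 of 8 in the F13a1-led cluster, 1 and 1 of 7 in the Fn1-led one), and 1 of 8, 1 of 10 and 1 of 7 were higher and 0 lower in granulocyte precursor-like, progenitor-like and plasma cell-like cells. Nfe2l2, which encodes NRF2, was 78.8 CPM labelled knockout and 90.6 CPM control in progenitor-like cells (0.870, 0.762 to 0.994) and 22.6 and 27.5 CPM in plasma cell-like cells (0.821, 0.458 to 1.49). In granulocyte precursor-like cells it was 40.3 and 34.7 CPM (1.16, 0.844 to 1.62). In monocyte-like cells it was 52.2 and 88.0 CPM (0.593, 0.456 to 0.775). Keap1 stayed within 1.5-fold in all 4 classes, with ratios of 0.786, 1.39, 0.959 and 0.967 in monocyte-like, granulocyte precursor-like, progenitor-like and plasma cell-like cells. Bach1, the repressor, was 17.9 and 59.0 CPM in monocyte-like cells (0.304, 0.208 to 0.444), 12.8 and 8.18 CPM in granulocyte precursor-like cells (1.57, 0.829 to 3.21) and 16.9 and 18.3 CPM in progenitor-like cells (0.926). Maff, a small MAF partner, was 35.4 and 7.50 CPM in plasma cell-like cells (4.72, 2.01 to 13.5).

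Another list held 23 NRF2 target genes. In progenitor-like cells 0 of its 23 measured genes reached 1.5-fold in either direction, and in granulocyte precursor-like cells 0 of 17. In monocyte-like cells 3 of 18 were higher and 4 lower, with 3 and 2 of 15 in the F13a1-led cluster and 2 and 0 of 14 in the Fn1-led one. Among them Mgst2, a microsomal glutathione transferase, was 84.8 and 15.5 CPM (5.48, 3.31 to 9.73), Gstm1 441 and 211 CPM (2.09, 1.81 to 2.43) and the carbonyl reductase gene Cbr3 2.24 and 15.5 CPM (0.145, 0.0504 to 0.372). In plasma cell-like cells 3 of 13 were higher and 1 lower, with Pgd of the pentose phosphate pathway at 32.4 and 13.7 CPM (2.35) and Gsr, glutathione reductase, at 18.1 and 36.2 CPM (0.498, 0.278 to 0.887).

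Of the glutathione and thioredoxin list, 1 of 14 measured genes was higher and 3 lower in monocyte-like cells (2 and 2 of 14 in the F13a1-led cluster, 1 and 1 of 13 in the Fn1-led one), 0 and 1 of 14 in granulocyte precursor-like cells, 2 and 0 of 16 in progenitor-like cells, and 3 and 0 of 13 in plasma cell-like cells. Gstp1, a glutathione transferase, differed in direction between classes. It was 46.3 and 26.8 CPM in progenitor-like cells (1.73, 1.39 to 2.17) and 81.3 and 31.2 CPM in plasma cell-like cells (2.60, 1.67 to 4.20). In granulocyte precursor-like cells it was 13.7 and 37.5 CPM (0.366, 0.249 to 0.539). Each class was compared within a single gate, so class and gate cannot be told apart. The peroxiredoxin, catalase and superoxide dismutase list had 2 of 11 higher and 3 lower in monocyte-like cells (0 and 3 of 10 in the F13a1-led cluster, 2 and 0 of 8 in the Fn1-led one), 3 of 9 higher in granulocyte precursor-like cells, 0 of 11 past 1.5-fold in progenitor-like cells and 3 of 10 higher in plasma cell-like cells. Cat, catalase, was 27.5 and 17.7 CPM in granulocyte precursor-like cells (1.55, 1.01 to 2.47).

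Of the iron and haem list, 2 of 17 measured genes were higher and 5 lower in monocyte-like cells, whereas 5 of 16 were higher and 2 lower in the F13a1-led cluster and 0 and 3 of 9 in the Fn1-led one, 1 of 17 was lower in granulocyte precursor-like cells, and 0 of 15 and 0 of 9 reached 1.5-fold in progenitor-like and plasma cell-like cells. In monocyte-like cells Tfrc, the transferrin receptor, was 21.8 and 4.84 CPM (4.50, 1.84 to 14.3), while Slc11a1, a metal transporter of phagosomes, was 14.1 and 78.3 CPM (0.180, 0.122 to 0.263). Of the NADPH oxidase list, whose complex makes superoxide, 3 of 7 genes were lower in monocyte-like cells (4 of 7 in the F13a1-led cluster, 0 of 7 in the Fn1-led one) and 1 of 7 in granulocyte precursor-like cells, where Cybb was 92.2 and 195 CPM (0.473, 0.405 to 0.553). In progenitor-like cells 0 of 6 and in plasma cell-like cells 1 of 6 were higher, with 0 lower. Of the autophagy list, 1 of 12 was higher and 3 lower in monocyte-like cells (3 and 4 of 11 in the F13a1-led cluster, 1 and 1 of 8 in the Fn1-led one), with Gabarapl1 at 34.3 and 8.70 CPM (3.94). It was 1 of 12 higher and 2 lower in granulocyte precursor-like cells, with Optn at 3.26 and 9.54 CPM (0.342, 0.151 to 0.773), and 3 of 12 higher in plasma cell-like cells, with Tbk1 at 19.6 and 6.25 CPM (3.13, 1.18 to 10.4). In progenitor-like cells 0 of 13 reached 1.5-fold.

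Of the genes that respond to cell dissociation, those past 1.5-fold lay mostly on 1 side in 3 classes and on both sides in granulocyte precursor-like cells. In monocyte-like cells 12 of 18 such genes were lower and 2 higher, with Junb at 189 and 934 CPM (0.202, 0.182 to 0.224), Atf3 at 54.7 and 285 CPM (0.192) and Hsp90aa1 at 563 and 251 CPM (2.24, 1.96 to 2.56). By cluster, 1 of 16 was higher and 9 lower in the F13a1-led one, 2 of 16 higher and 0 lower in the Fn1-led one, and 0 of 11 higher and 7 lower in the Ear2-led one. In progenitor-like and plasma cell-like cells 6 of 17 were higher and 0 lower, with Jund at 1009.7 and 478 CPM in progenitor-like cells (2.11, 2.01 to 2.22) and 2254 and 999.5 CPM in plasma cell-like cells (2.25, 2.09 to 2.44). In granulocyte precursor-like cells 2 of 17 were higher and 3 lower, where 9.06% of all genes were higher and 8.97% lower. The shares of all genes higher and lower were 24.3% and 22.5% in monocyte-like cells. They were 19.4% and 19.5% in the F13a1-led, 8.65% and 14.1% in the Fn1-led and 18.3% and 31.7% in the Ear2-led cluster. In progenitor-like cells they were 5.77% and 2.9%, and in plasma cell-like cells 19.1% and 5.45%. The part of the dissociation genes in the levels of the 9 members was not tested.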

How the data were processed

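The files hold raw UMI counts per gene and barcode, deposited by the authors as matrices; per the submitters' processing notes Cell Ranger, Seurat and mm10 were used, in versions that the sources do not state. Captures were made on the 10x Genomics Chromium, per the labels' protocols. A barcode was kept with 200 or more detected genes and a mitochondrial share of UMIs below 10%, and 74 barcodes failed this. Cells were clustered with Python 3.11.15, scanpy 1.11.5 and leidenalg 0.10.2 (log values of counts scaled to 10000, the 2000 most variable genes, 30 principal components, 15 nearest neighbours and a Leiden resolution of 1). Of 20 clusters 19 were named, from 18 marker lists of which 4 symbols had no match. A name needed at least 3 markers in 10% of cells and at least 3 raised 1.5-fold with 20 CPM added, and no other class ahead. The naming rule was set after clusters had been seen.

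Median depth was 5597 to 15428 UMIs per kept cell. Scrublet marked 6 and 5 sinusoidal cells and 2 and 1 type H cells, labelled knockout first. In the type H libraries the marked share, 0.108% and 0.124%, is too low for the caller to have worked, and cells with Xist and Y-linked UMIs together were 1.51% to 2.56% per library. All stayed in.

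UMIs were summed per class and library and scaled to CPM, with exact Poisson intervals. Ratios have exact intervals conditional on the total, and shares of cells above 0 Clopper-Pearson intervals, while a share of 0 is given the limit of 3 counts of the total, computed with scipy 1.17.1. All are at 95% and cover counting error only, so with 1 library per group no p-value is given. The log2 medians used 0.5 added UMIs. The ratios, calls and intervals were run on simulated class sums that hold counting error only, with no differences between cells or clusters. The 9 genes, the 8 further lists of 130 genes, of which 2 symbols had no match, and the 4 classes were chosen with earlier results of these data known. Genes of the lists are named when at least 1.5-fold apart with an interval that excludes 1, at most 6 per direction and class by size of the ratio, beside Nfe2l2, Keap1 and Bach1. Promoter windows are from RefSeq on GRCm38.p6 and positions from GENCODE M21 on GRCm38.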

Additional observations from a re-analysis of the deposited data

How the results depend on the processing

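Counting error, a single library per group and cells that differ in depth limit all values, and rebuilt cluster names may differ from the study's. The level of Xist, read above beside Y-linked UMIs, also differed between the libraries. Labelled knockout first, it was 145 and 409 CPM in progenitor-like, 101 and 220 CPM in plasma cell-like and 131 and 215 CPM in granulocyte precursor-like cells. In monocyte-like cells it was 188 and 123 CPM. Whether the mice differed in sex, and its part in the ratios, was not tested. No paired analysis was possible because each group has 1 library and no replicate number. Members counted in monocyte-like cells, 1 higher and 2 lower as reported, became 2 higher with no filter on cells, and 2 higher and 1 lower with the mean of single-cell CPM or after thinning to 2000 UMIs. With the strict filter, at Leiden resolution 2, at 2-fold, or scaled without immunoglobulin, haemoglobin and mitochondrial genes, 1 was lower. The class held 219 cells labelled knockout and 174 control cells as reported, 112 and 127 with the strict filter and 114 and 127 at resolution 2. At resolution 2 a cluster led by BC035044 and F13a1, with 101 and 5 sinusoidal cells, had no name. Neither had the Ear2-led one, with 5 and 42. These counts are therefore of different sets of cells. Of the clusters as reported, the most numerous, which is the F13a1-led one, gave 0 higher, the Fn1-led cluster 2 higher and 0 lower, the Ear2-led cluster 6 higher and 0 lower, that cluster without the Hmox1-rich cells 0 higher and 1 lower, and leaving out the Hmox1-rich cells 4 lower. The 4 lower with these cells left out follow in part from the removal itself. Sqstm1 and Ftl1 reversed, to 1.15 and 1.03 in the Fn1-led and 2.54 (interval 0.895 to 6.36) and 4.29 in the Ear2-led cluster, which has 5 cells labelled knockout. Without the Hmox1-rich cells that cluster gave 1.40 (0.157 to 5.83) and 1.09. In granulocyte precursor-like cells the 1 lower became 0 with the strict filter, Leiden resolution 2, thinning, a minimum of 50 UMIs, 2-fold and in the Ngp-led cluster, and either cluster alone gave 1 higher. This class too was smaller with the strict filter (167 and 67 cells) and at resolution 2 (173 and 69) than as reported (254 and 91). In progenitor-like cells the 1 lower became 0 with thinning, 50 UMIs and in the most numerous cluster, which gave 1 higher. In plasma cell-like cells thinning gave 1 higher and 2 lower, and mean CPM 3 lower. Settings by cluster and without Hmox1-rich cells were chosen after seeing the data. Other causes were not tested. Over all settings 65 of 110 member ratios moved by less than their interval in monocyte-like cells, against 94 of 108 in granulocyte precursor-like, 101 of 105 in progenitor-like and 74 of 85 in plasma cell-like cells.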

Other observations

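A cluster that no marker list named was led by the platelet genes Pf4 and Ppbp and by genes of cell division such as Cenpf, Ccnb2 and Top2a. Of its 191 cells, 109 labelled knockout and 43 control cells came from the type H gate, and 28 and 11 from the sinusoidal gate. Hmox1 had 0 UMIs in all of them. In the type H gate the median cell held 11792 and 14824 UMIs, and by the limit of 3 counts of the total a share of cells with a UMI of up to 2.75% and 6.98% is allowed. The values that follow are of the type H gate. Gclm was 178 CPM (155 to 203) labelled knockout and 181 CPM (149 to 218) control, in the range of progenitor-like cells, and Fth1 was 1719 and 1645 CPM. Prdx1 was 489 CPM (451 to 530) labelled knockout, against 609 CPM (550 to 674) in the control, and Txnrd1 58.8 CPM (46.1 to 73.9), against 91.4 CPM (69.2 to 118). Srxn1 was 14.5 and 8.02 CPM, from 18 and 5 UMIs. In the 28 sinusoidal cells labelled knockout Gclm was 132 CPM (101 to 170), Prdx1 657 CPM (585 to 736) and Fth1 1755 CPM (1636 to 1880), and the 11 sinusoidal control cells were too few for a level.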
